A study of Mus musculus with 20 samples.

Results

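The myelin structural protein genes are 10 genes whose products build or line the myelin sheath: Mbp, Mog, Mag, Mobp, Cnp, Cldn11, Mal, Opalin, Ermn and Tspan2. They were chosen by symbol, and every probe set annotated to exactly 1 of these symbols was taken, which gave 28 of the 45037 probe sets tested and 10 of 18193 named genes. Mbp had 8 probe sets, Mobp 5, Cnp and Tspan2 3 each, Mal, Opalin and Ermn 2 each, and Mog, Mag and Cldn11 1 each. The probe set of a gene whose mean over the 20 arrays was highest is given first and called the brightest; the others are named by their rank.

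Expression was measured with Affymetrix arrays in motor cortex and sensory cortex of 10 female C57Bl6 mice, 1 array per mouse and region. One group, EAE (experimental autoimmune encephalomyelitis, a model of multiple sclerosis), had 6 mice, injected at 8 to 12 weeks of age with MOG35-55 peptide, 100 µg under the skin of the rear flanks and 50 µg into the base of the tail, together with 400 ng of pertussis toxin into the abdomen on days 0 and 3. The other group, healthy, had 4 mice of the same strain and age range from the same cages, for which no injection is described, so the immunisation and the disease cannot be told apart. Clinical grades of the EAE mice were 2.5 to 3.5, and collection was on day 21 in the protocol and on days 18 to 21 in the sample labels. All mice were perfused, and the regions were dissected from coronal slices of 1 mm with the help of an atlas, so a sample is a mixture of all cells of the region. Each of 2 cohorts held 3 EAE and 2 healthy mice. As a check of the tissue, the mean log2 level of 8 neuronal marker genes was 13.46 to 13.61 in the EAE motor arrays and 13.44 to 13.53 in the healthy motor arrays, and 13.46 to 13.56 and 13.40 to 13.55 in the EAE and healthy sensory arrays.

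Myelin is a spiral of oligodendrocyte membrane around an axon. In its compact part the inner faces of the membrane are held together by basic proteins such as MBP, while cytoplasm-filled channels, tight junctions and the membrane next to the axon carry proteins of their own. Cortical grey matter holds less myelin than the white matter beneath it, and the immune response in EAE is directed against a myelin protein.

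The sequences upstream of 4 of these genes are shown because the transcription factors of oligodendrocytes act through promoters and enhancers of myelin genes. They are RefSeq sequences of assembly GRCm38.p6, written 5′ to 3′ on the strand of the gene, each 300 bases long and spanning an annotated transcription start. Capitals mark ACAAAG or its reverse complement CTTTGT, a core of SOX factor motifs, and CTGGCAC or CTGGTAC or their reverse complements GTGCCAG and GTACCAG, cores of the motif of the myelin regulatory factor MYRF. These letters were chosen with earlier results of the data known.
Mag (chr7:30914814-30915113, minus strand): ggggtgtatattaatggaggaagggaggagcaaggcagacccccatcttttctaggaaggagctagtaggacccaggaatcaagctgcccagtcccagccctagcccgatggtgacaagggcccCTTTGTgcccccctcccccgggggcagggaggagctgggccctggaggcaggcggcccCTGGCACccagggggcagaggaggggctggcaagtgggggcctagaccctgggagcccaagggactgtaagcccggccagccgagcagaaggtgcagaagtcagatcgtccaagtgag
Opalin (chr19:41077064-41077363, minus strand): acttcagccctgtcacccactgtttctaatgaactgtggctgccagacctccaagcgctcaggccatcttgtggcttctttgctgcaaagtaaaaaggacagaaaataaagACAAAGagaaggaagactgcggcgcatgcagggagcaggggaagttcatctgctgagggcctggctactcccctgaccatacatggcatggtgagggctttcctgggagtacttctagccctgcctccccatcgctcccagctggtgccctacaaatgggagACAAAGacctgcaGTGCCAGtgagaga
Cnp (chr11:100574689-100574988, plus strand): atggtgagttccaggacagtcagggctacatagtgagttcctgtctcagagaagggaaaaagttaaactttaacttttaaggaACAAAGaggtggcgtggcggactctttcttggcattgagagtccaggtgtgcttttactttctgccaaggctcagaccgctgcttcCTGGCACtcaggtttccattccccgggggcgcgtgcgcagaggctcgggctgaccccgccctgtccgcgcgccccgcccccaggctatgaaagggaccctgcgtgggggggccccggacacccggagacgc
Mobp (chr9:120149492-120149791, plus strand): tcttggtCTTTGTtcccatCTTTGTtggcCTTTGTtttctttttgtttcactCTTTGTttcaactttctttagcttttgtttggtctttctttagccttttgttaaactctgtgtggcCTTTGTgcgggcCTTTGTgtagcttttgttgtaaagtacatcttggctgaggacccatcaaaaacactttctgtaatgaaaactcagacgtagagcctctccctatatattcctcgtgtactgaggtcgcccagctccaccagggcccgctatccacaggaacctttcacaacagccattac

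The table held 12 promoters of 9 of the genes, and Mbp is named only. The SOX core occurred in 6 of the 12 promoters, of 5 genes, and in 18.7% of all 32851 promoters in the table. A MYRF core occurred in 5 of the 12, of 4 genes, and in 7.1% of all. Both occurred in 4 of the 12, belonging to Mag, Cnp and Opalin, and in 1.44% of all. Of the 3 Mag promoters 2 overlap and hold the same SOX and MYRF cores, so these sites are counted for both in each of the counts over the 12. Mobp carried 6 SOX cores and no MYRF core within this window. These are matches of letters and not measured binding.

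In motor cortex the genes were compared between EAE mice and healthy mice first. Mag, which encodes an adhesion protein of the myelin membrane facing the axon, was the 1 of the 28 probe sets called at an adjusted p under 0.05, and it fell. Over all probe sets tested 0.722% were called in motor cortex, and 0.551% were called lower. The median difference, EAE minus healthy on the log2 scale, was -0.14 over the 28 probe sets and -0.29 over the 10 brightest, against -0.0019 over all probe sets. Of the 28, 23 stood below 0, against 50.8% of all, and 14 had an unadjusted p under 0.05, against 12.1% of all. In bulk tissue fewer cells of a type and less RNA per cell cannot be told apart.

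Among the surface and adhesion proteins, Mag had log2 levels of 10.50 at the lowest, 10.69 at the median and 10.82 at the highest in the 6 EAE motor arrays, against 11.13, 11.33, 10.91 and 11.07 in the 4 healthy ones. Every EAE array lay below every healthy array. The difference was -0.45 ± 0.09 (log2, SE; 0.734-fold; limma adjusted p = 0.0461). The call was lost without any 1 mouse other than EAE mouse 6, with adjusted p-values of 0.0510 to 0.162, and without healthy mouse 2 the difference was -0.37. It was also lost after quantile normalization (adjusted p = 0.0525), after median centring (0.0673), within cohort 1 (-0.63, 0.261) and within cohort 2 (-0.26, 0.401). With mouse number as a block, Mag had an adjusted p of 0.0557 and the brightest Opalin probe set was called instead, at -0.74 (limma adjusted p = 0.0231).

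Mog, the glycoprotein of the outermost myelin layer from which the injected peptide is derived, ranged from 9.27 to 10.07 in the EAE motor arrays with a median of 9.60, against 9.87, 10.47, 9.87 and 9.90 in the healthy ones. All EAE arrays but that of mouse 6 lay below the lowest healthy array. The difference was -0.41 ± 0.15 (log2, SE; limma adjusted p = 0.301), -0.76 within cohort 1 and -0.05 within cohort 2. Without healthy mouse 2, which was the highest array, it was -0.21.

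Opalin, a small membrane protein of the paranodal loops, had 9.85, 10.14 and 10.50 as its lowest, median and highest EAE values in motor cortex, against healthy values of 10.64, 11.11, 10.55 and 10.71. The groups did not overlap. The difference of -0.62 ± 0.14 (log2, SE) was the most negative of the 10 brightest probe sets and missed the threshold at a limma adjusted p of 0.0732. It was -0.47 without healthy mouse 2. Opalin was called with brightest probe sets alone (limma adjusted p = 0.0383) and without EAE mouse 6 (0.0467). The other Opalin probe set read 5.11 to 5.44 in EAE motor arrays and 5.24 to 5.41 in healthy ones, toward the bottom of the deposited range.

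Cnp encodes an enzyme that keeps the cytoplasmic channels of myelin open. Its brightest probe set ran from 13.43 to 13.63 with a median of 13.55 in EAE motor cortex, against 13.79, 13.87, 13.70 and 13.68 in healthy motor cortex, with no overlap. The difference was -0.22 ± 0.06 (log2, SE; limma adjusted p = 0.155), and the other 2 Cnp probe sets gave -0.32 and -0.26.

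Ermn encodes ermin, a cytoskeletal protein of mature oligodendrocytes. On its brightest probe set EAE motor arrays had 10.11, 10.31 and 10.47 as lowest, median and highest value, and healthy ones had 10.66, 11.16, 10.42 and 10.41. The highest EAE array lay between the healthy arrays, and the difference was -0.38 ± 0.13 (log2, SE; limma adjusted p = 0.266), or -0.70 and -0.05 within cohorts 1 and 2. On the second Ermn probe set the groups did not overlap, with 9.54 to 9.89 in EAE and 9.90 to 10.75 in healthy motor arrays, and the difference was -0.48 ± 0.13 (limma adjusted p = 0.121).

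Tspan2, a tetraspanin of oligodendrocytes, ranged from 10.63 to 11.06 with a median of 10.73 in EAE motor arrays, against 11.02, 11.36, 10.89 and 11.21 in healthy ones. EAE mouse 6 alone lay within the healthy range, and the difference was -0.35 ± 0.10 (log2, SE; limma adjusted p = 0.177). The other Tspan2 probe sets gave -0.11 and -0.22.

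In all, EAE and healthy motor arrays did not overlap, with EAE lower, for 5 of the 28 probe sets: those of Mag, Opalin and Cnp above, the second Ermn probe set and the third brightest of Mbp. Over all probe sets 2.99% showed such a pattern with EAE lower.

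**Figure D1:**
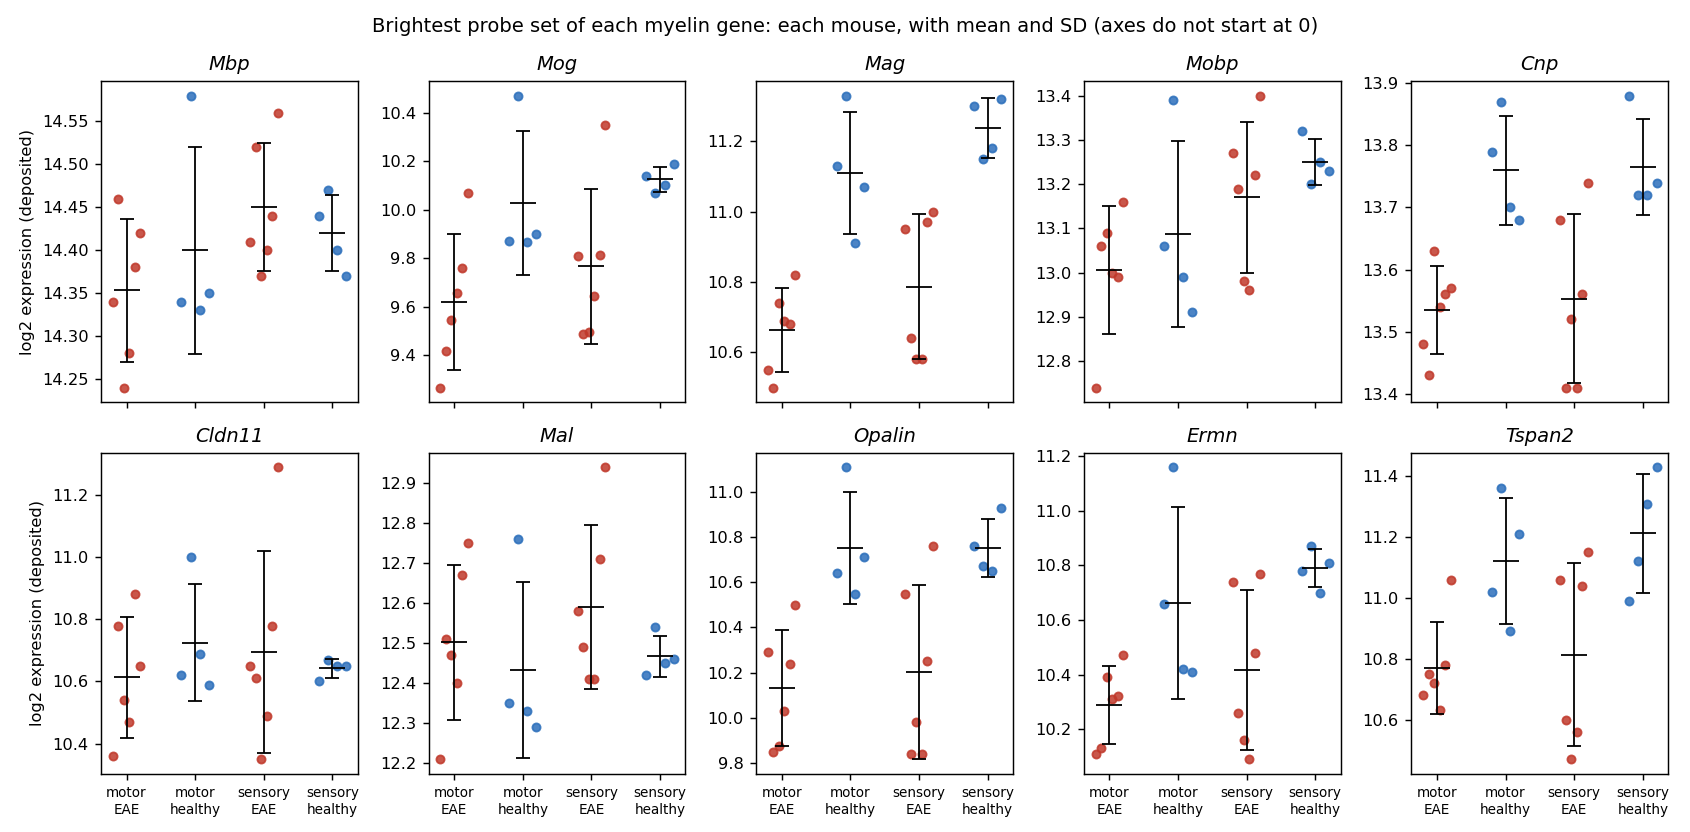
Log2 expression of the brightest probe set of each gene, one point per mouse, in EAE (red) and healthy (blue) motor and sensory cortex, with the mean and SD (n = 6 EAE and 4 healthy per region). Axes do not start at 0. Mag separates the groups in both regions, and Opalin and Cnp separate them in motor cortex.

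For the proteins of compact myelin and its junctions, EAE and healthy arrays overlapped on each brightest probe set in motor cortex. The same held for Mog, Ermn and Tspan2 above. Mbp, which glues the cytoplasmic faces of compact myelin together, ranged from 14.24 to 14.46 in EAE motor arrays with a median of 14.36, against 14.34, 14.58, 14.33 and 14.35 in healthy ones. These levels lie near the highest value in the table, 14.98. The groups overlapped, with a difference of -0.04 (95% interval -0.20 to 0.11), and the table holds no flag for saturated probes, so an effect of saturation was not tested.

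The other Mbp probe sets, which share the gene and are not independent, differed by -0.27 to 0.01 in motor cortex and by -0.25 to -0.05 in sensory cortex. The most negative in both regions was the sixth brightest, which was chosen for mention after its values were seen. It gave -0.27 ± 0.12 in motor and -0.25 ± 0.08 in sensory cortex (log2, SE; limma adjusted p = 0.395 and 0.165). None of the 8 Mbp probe sets was called in either region.

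Mobp, a basic protein of compact central myelin, had probe sets on both sides of 0. Its brightest ranged from 12.74 to 13.16 in EAE motor arrays and from 12.91 to 13.39 in healthy ones, and the difference was -0.08 (95% interval -0.30 to 0.14). The third brightest, also singled out after its values were seen, had 11.22, 11.83 and 12.13 as lowest, median and highest EAE motor value, against 11.41, 11.67, 11.32 and 11.36 in healthy mice. Of the 6 EAE arrays 4 lay above every healthy array and 1 below. Its difference was 0.30 ± 0.16 in motor and 0.30 ± 0.14 in sensory cortex (log2, SE; limma adjusted p = 0.511 and 0.337), and in motor cortex it was -0.000483 within cohort 1 and 0.59 within cohort 2.

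Cldn11, the claudin of myelin tight junctions, ranged from 10.36 to 10.88 in EAE motor arrays and from 10.59 to 11.00 in healthy ones, and differed by -0.11 (95% interval -0.35 to 0.14). Mal, a proteolipid of myelin membrane trafficking, ranged from 12.21 to 12.75 in EAE and from 12.29 to 12.76 in healthy motor arrays, and differed by 0.07 (95% interval -0.19 to 0.32). The groups overlapped for both genes. A difference between these genes and those above was not tested.

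**Figure D2:**
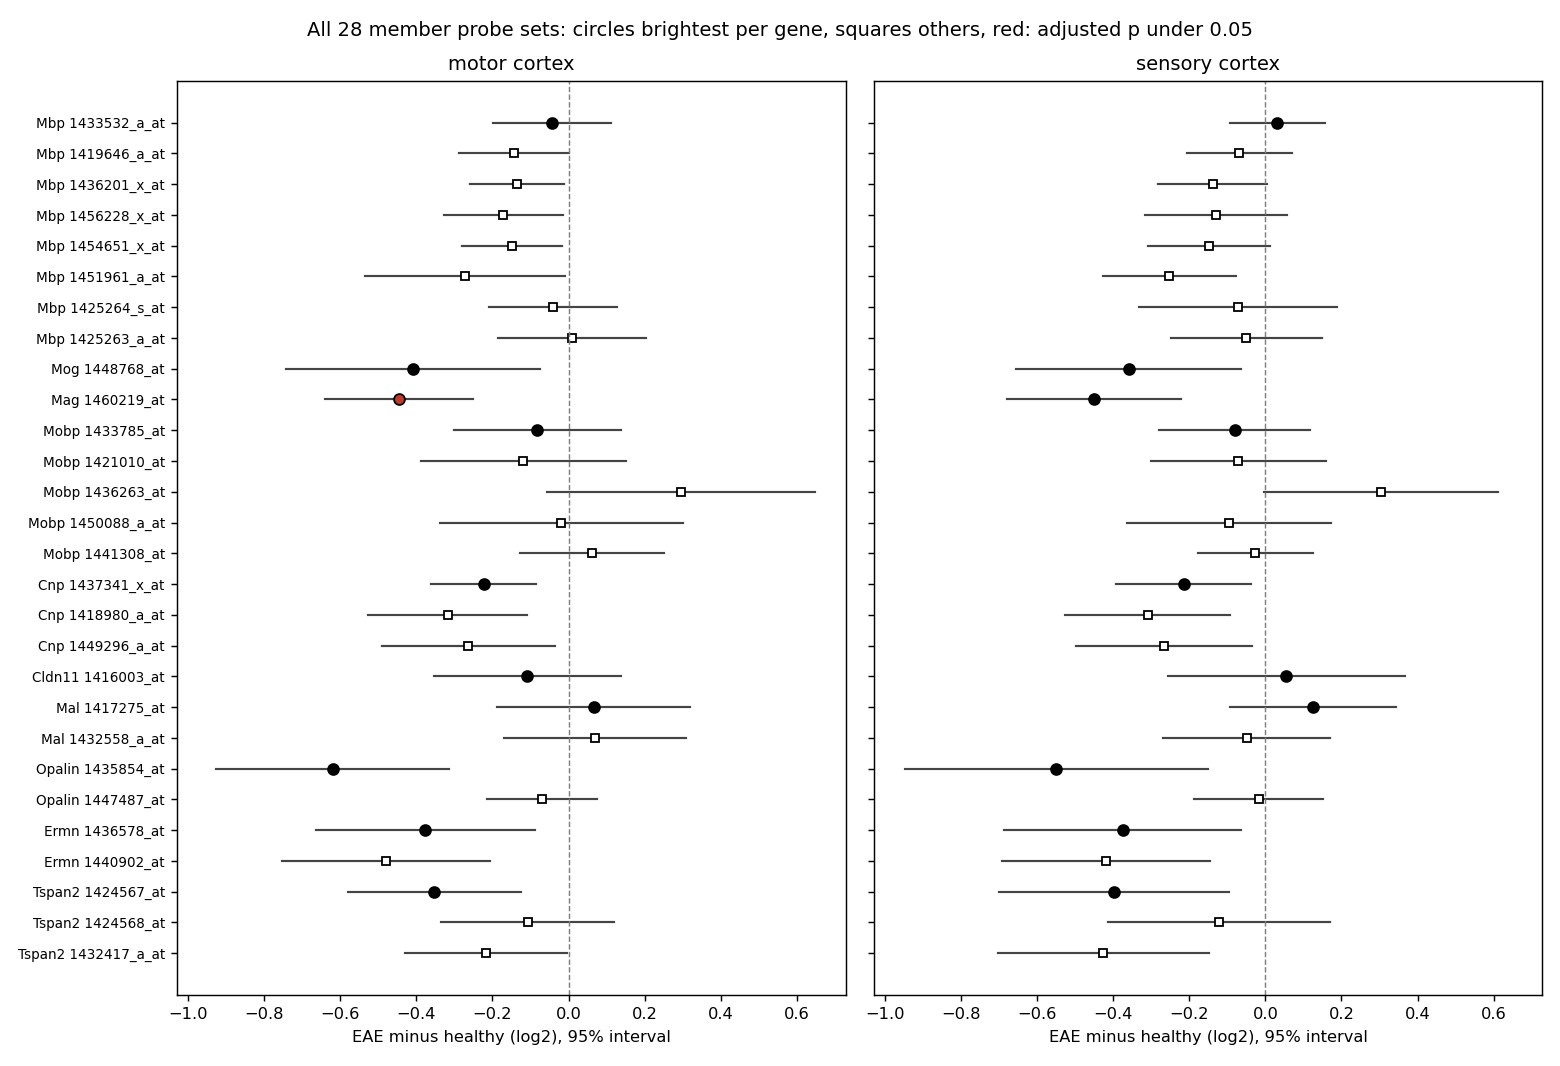
EAE minus healthy difference (log2) with its 95% interval for all 28 probe sets in motor (left) and sensory cortex (right). Circles are the brightest probe set of a gene and squares the others. Red marks the 1 probe set with an adjusted p under 0.05, that of Mag in motor cortex.

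The second comparison asked the same in sensory cortex of the same mice. None of the 28 probe sets was called, against 0.577% of all probe sets tested (limma; 11 of the 28 had an unadjusted p under 0.05, against 15.2% of all). With the brightest probe set of each gene alone fitted, Mag was called (limma adjusted p = 0.0491), as it was without EAE mouse 1 (0.0342). The median difference was -0.13 over the 28 and -0.29 over the 10 brightest, and 24 of the 28 stood below 0, against 50.4% of all.

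Mag in sensory cortex had 10.58, 10.80 and 11.00 as lowest, median and highest EAE value, against 11.30, 11.15, 11.18 and 11.32 in healthy mice. It was the only 1 of the 28 probe sets whose groups did not overlap, a pattern that 2.93% of all probe sets showed with EAE lower. The difference was -0.45 ± 0.10 (log2, SE; limma adjusted p = 0.0785), and -0.50 and -0.40 within cohorts 1 and 2.

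Opalin ran from 9.84 to 10.76 with a median of 10.11 in EAE sensory arrays, against 10.76, 10.67, 10.65 and 10.93 in healthy ones. EAE mouse 6 alone lay within the healthy range. The difference was -0.55 ± 0.18 (log2, SE; limma adjusted p = 0.183).

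The remaining differences in sensory cortex, on brightest probe sets, were -0.40 for Tspan2, -0.37 for Ermn, -0.36 for Mog, -0.21 for Cnp, -0.08 for Mobp, 0.03 for Mbp, 0.06 for Cldn11 and 0.12 for Mal, with limma adjusted p-values from 0.202 to 0.877. For Mog the EAE sensory arrays lay between 9.49 and 10.35 and the healthy ones between 10.07 and 10.19. For Ermn they lay between 10.09 and 10.77 in EAE mice and between 10.70 and 10.87 in healthy mice.

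With the 2 arrays of each mouse averaged, 2 of the 28 probe sets were called lower, against 3.38% of all probe sets in either direction and 2.62% lower. The count ran from 1 to 9 with single mice left out: it was 9 without EAE mouse 6, and 1 without any 1 of the 4 healthy mice. Mag fell by 0.45 ± 0.07 (log2, SE; limma adjusted p = 0.0116), and its call held without each mouse in turn, at adjusted p-values up to 0.0495. It was lost without the mice of the second processing day (-0.42, limma adjusted p = 0.205). These were healthy mice 1 and 4, so healthy mice 2 and 3 alone remained, and day and number of mice cannot be told apart. The Mag call was also lost within cohort 1 (-0.57, limma adjusted p = 0.455) or cohort 2 (-0.33, 0.118) alone. The second Ermn probe set fell by 0.45 ± 0.09 (limma adjusted p = 0.0226), and that call was lost without any 1 of the 4 healthy mice, at adjusted p-values of 0.0501 to 0.0602. Opalin stood at -0.58 (adjusted p = 0.0571) and brightest Cnp at -0.22 (adjusted p = 0.0558), and both were called without the cohort term (limma adjusted p = 0.0483 for Opalin and 0.0490 for Cnp).

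The third comparison asked whether the EAE difference itself differed between motor and sensory cortex, tested on each mouse's motor minus sensory value. No probe set was called among the 28, nor among all 45037 (limma; 0 of the 28 and 991 of all had an unadjusted p under 0.05). On brightest probe sets the estimates ranged from -0.16 to 0.05. For Mag it was 0.0037 (95% interval -0.28 to 0.28), for Opalin -0.07 (95% interval -0.37 to 0.23) and for Cldn11 -0.16 (95% interval -0.49 to 0.16). On simulated data this test recovered 26% of log2 changes of 0.5 and 81% of changes of 1, so a missed call does not show that the regions responded alike.

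Within a condition, motor and sensory cortex of the same mice were compared. All 10 brightest probe sets stood lower in motor cortex in EAE mice, and 9 of 10 in healthy mice, against 46.6% and 46.4% of all probe sets. None of the 28 was called in either condition, against 3.28% and 1.77% of all probe sets. The median motor minus sensory difference of the 10 was -0.10 in EAE and -0.06 in healthy mice. Mobp had the most negative estimate on its brightest probe set in both, -0.16 ± 0.09 in EAE and -0.16 ± 0.11 in healthy mice (log2, SE; limma adjusted p = 0.453 and 0.643). The other Mobp probe sets ranged from -0.305 to 0.07 in EAE and from -0.35 to -0.02 in healthy mice. The most negative of these had limma adjusted p-values of 0.105 in EAE and 0.321 in healthy mice. The signs of small values here depended on which mice were used. In healthy mice 6 of the 10 genes changed sign without healthy mice 1 and 4, which had the arrays of the second processing day. Without healthy mouse 1 alone 3 changed sign, and without healthy mouse 4 alone 3 did. Quantile normalization and median centring each changed the sign of Opalin only.

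The arrays of a group did not vary alike in the 2 conditions and regions. The mean of the 10 brightest probe sets had an SD of 0.12 among EAE and 0.20 among healthy motor arrays, and of 0.23 among EAE and 0.03 among healthy sensory arrays. Among EAE mice, mouse 6 was highest in sensory cortex for 10 of the 10 genes, 0.35 above the group mean, and highest in motor cortex for 7 of 10. Its sensory mean was 0.13 above the healthy mean, and the other 5 EAE mice lay 0.10 to 0.43 below it. In motor cortex all 6 EAE mice lay below the healthy mean, by 0.06 to 0.41, but so did 3 of the 4 healthy mice, by 0.06 to 0.14.

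In motor cortex healthy mouse 2 was the highest healthy array for 10 of the 10 genes, 0.29 above the group mean, while its sensory array lay 0.02 below the mean of its group. The mean of 5 striatal marker genes was highest among healthy arrays in that mouse in both regions, 0.26 above the group mean in each. So were the means of the oligodendrocyte transcription factor genes (0.11 in motor and 0.07 in sensory cortex above the group mean), precursor genes (0.05 and 0.08) and astrocyte genes (0.05 and 0.08). A part of tissue composition in this was not tested.

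**Figure D3:**
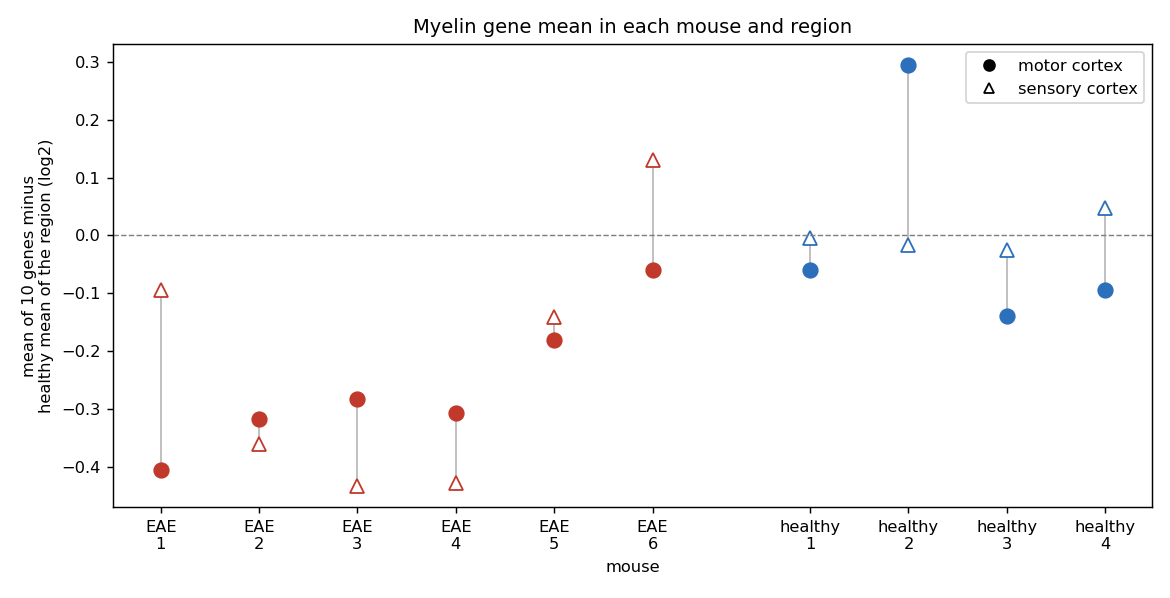
Mean of the 10 brightest probe sets in each mouse, minus the healthy mean of the same region (log2), for EAE (red) and healthy mice (blue). Filled circles are motor and open triangles sensory cortex, joined for each mouse. EAE mouse 6 lies above the healthy mean in sensory cortex, and healthy mouse 2 stands out in motor cortex alone.

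The genes varied together among arrays. Over the 20 arrays, after subtraction of the 4 group means, all 45 pairs of genes correlated above 0, with Pearson's r from 0.196 (Mbp and Cnp) to 0.908 (Mog and Mal) and a median of 0.727. These arrays share mice and the normalization, so the values describe these arrays only. Mbp was the least tied to the rest, with a median r of 0.502, and Ermn the most, with 0.81. Among 14839 other genes the 5 closest to the mean of the 10 by the same measure were Tmcc3 (r = 0.913), Tbce (0.884), 2810414N06Rik (0.855), Gatm (0.848) and Vipas39 (0.844).

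The clinical grade of the 6 EAE mice was set against the mean of their 2 arrays, with cohort in the fit. No probe set was called among the 28, nor among all 45037 (limma; 3 of the 28 and 2615 of all had an unadjusted p under 0.05). The slope per grade unit was above 0 for 10 of the 10 brightest probe sets, from 0.01 to 0.65, while 63.2% of all probe sets stood below 0. Without EAE mouse 4 alone 6 of the 10 turned below 0 (Mag, Mog, Opalin, Cnp, Ermn and Tspan2), and without EAE mouse 6 alone 3 did (Opalin, Cnp and Ermn). Cldn11 had the steepest, 0.65 ± 0.19, and Mal followed at 0.51 ± 0.18 (log2 per grade, SE; limma adjusted p = 0.780 for each). On simulated data this test recovered 0% of slopes of 0.5 and of 1, so a missed call says nothing about a slope.

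Other genes of myelin and mature oligodendrocytes were described from a list of 36, of which 31 were measured. In motor cortex 7 were called lower and none higher, 29 stood below 0, and the median difference was -0.35. Those named by smallest p were Ugt8a, an enzyme of galactolipid synthesis, at -0.69 ± 0.08, Car2, a carbonic anhydrase, at -0.49 ± 0.08, Bcas1 at -0.49 ± 0.08, the plasmolipin gene Pllp at -0.57 ± 0.10, the protease gene Adamts4 at -0.67 ± 0.12 and the cytokine gene Il33 at -0.58 ± 0.11 (log2, SE; limma adjusted p from 0.0026 to 0.0391). The seventh, Tmem88b, stood at -0.55. The 2 genes above 0 were Apod, the apolipoprotein D gene, at 0.47 ± 0.12 (limma adjusted p = 0.109), and Anln at 0.13. In sensory cortex 3 were called lower, Klk6 (-0.68), Pllp (-0.62) and Bcas1 (-0.46), 27 stood below 0 and the median was -0.32, while Apod stood at 0.63 ± 0.12 (limma adjusted p = 0.0535). With both regions averaged 13 of the 31 were called lower and 1 higher, Apod, at 0.55 ± 0.10 (limma adjusted p = 0.0206). The mean of this list correlated with that of the 10 genes at r = 0.892 over the 20 arrays, after subtraction of group means.

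Of 9 measured transcription factor genes of oligodendrocytes, such as Olig2, Sox10 and Myrf, none was called in either region (limma), and 5 had an unadjusted p under 0.05 in each. The median was -0.18 in motor and -0.19 in sensory cortex. Sox10 stood at -0.19 in both regions, and Myrf at -0.04 in motor and -0.18 in sensory cortex.

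Markers of other cells were examined for the same arrays. None of the 8 neuronal markers was called in either region, and their medians were 0.05 in motor and 0.06 in sensory cortex. Of 7 microglial genes 6 stood below 0 in each region, with medians of -0.40 in motor and -0.32 in sensory cortex. The purinergic receptor gene P2ry12 was called at -0.97 in motor and -0.98 in sensory cortex. The mean of the microglial list was 9.57 to 9.78 in EAE and 10.01 to 10.19 in healthy motor arrays. In sensory arrays it was 9.37 to 9.92 in EAE and 9.93 to 10.16 in healthy mice. These ranges did not overlap, though narrowly in sensory cortex (9.917 against 9.925). The pattern was not particular to microglia. The means of the endothelial list and of the other myelin and mature oligodendrocyte list were also lower in EAE without overlap in each region. For the endothelial list the gap was narrow in motor cortex (9.941 against 9.945). The mean of the T cell list was higher in EAE without overlap in each region, narrowly in sensory cortex (6.866 against 6.859). Its levels lay below every array median (8.22 to 8.32), and none of its genes was called in either region. How often gene lists show such a pattern was not tested. Of 6 endothelial genes 5 stood below 0 in each region, with medians of -0.29 in motor and -0.34 in sensory cortex. Slco1c1, a thyroid hormone transporter gene, was called at -0.54 in motor and -0.51 in sensory cortex. Tek was called at -0.40 in motor cortex. Of 8 astrocyte genes none was called in either region (limma; 3 unadjusted p under 0.05 in each). Gfap, the intermediate filament gene of astrocytes, was 0.65 ± 0.23 higher in EAE motor arrays and 0.97 ± 0.24 higher in EAE sensory arrays, without a call (log2, SE; limma adjusted p = 0.264 and 0.0940). With both regions averaged, the calls (limma) were 0 of 8 neuronal genes, 2 of 7 microglial and 4 of 6 endothelial genes lower, and 1 of 8 astrocyte genes higher, Fgfr3 at 0.23 (adjusted p = 0.0283), while Gfap stood at 0.81 (adjusted p = 0.0805). A part of these cells in the differences of the myelin genes was not tested.

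**Figure D4:**
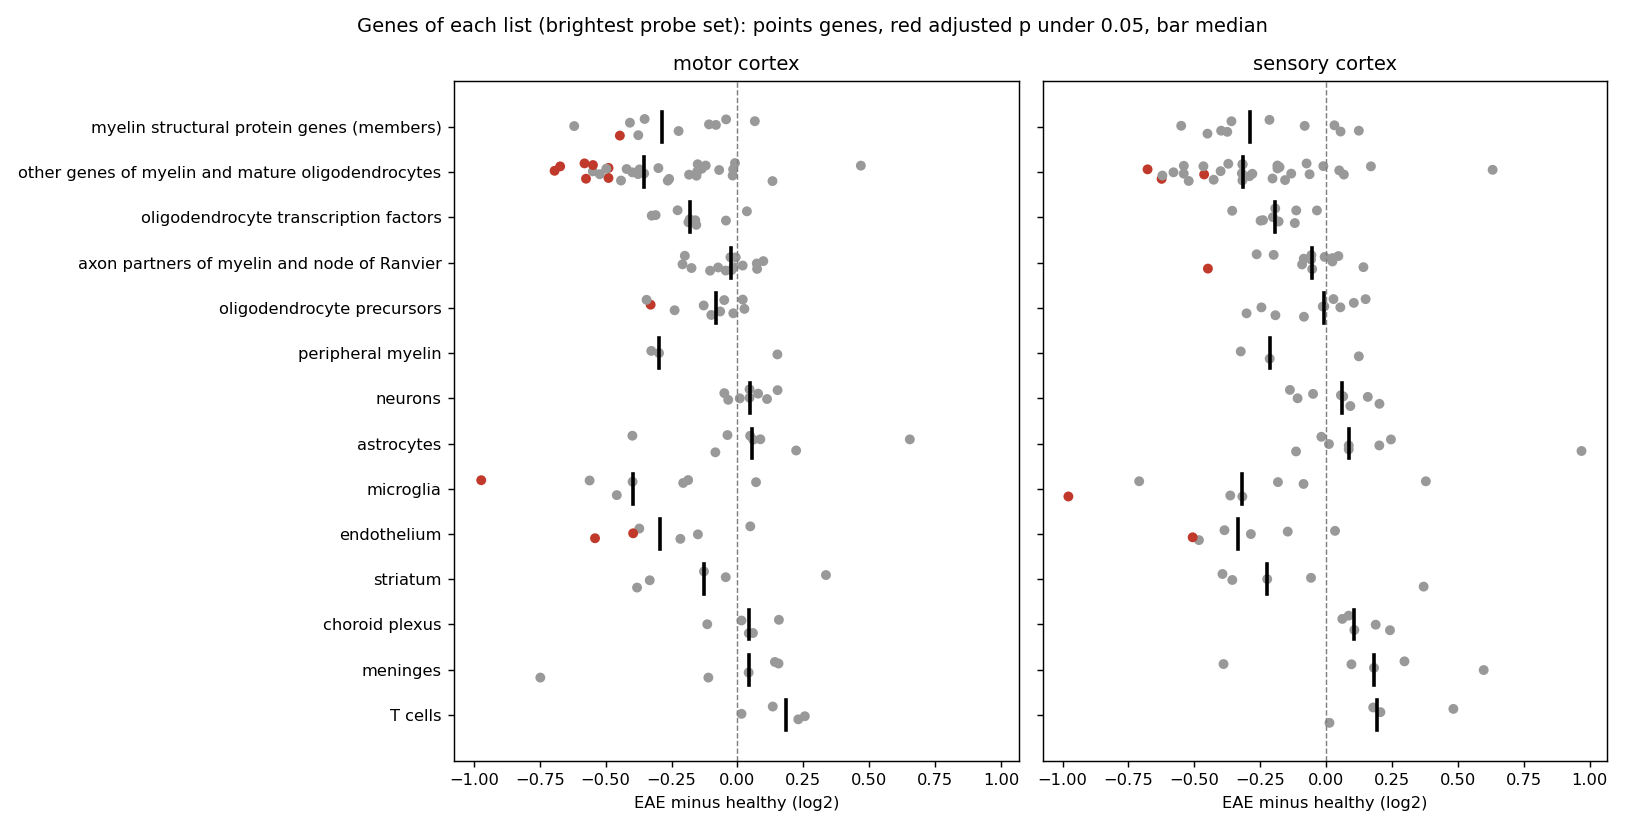
EAE minus healthy difference (log2) of each gene, on its brightest probe set, by gene list in motor (left) and sensory cortex (right). Red points have an adjusted p under 0.05 and bars are medians. The medians of the myelin structural genes and of the other genes of myelin and mature oligodendrocytes lie between -0.35 and -0.29. In motor and sensory cortex, those of the microglial genes lie at -0.40 and -0.32, and those of the endothelial genes at -0.29 and -0.34. Those of the neuronal genes lie at 0.05 and 0.06.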

How the data were processed

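The authors deposited log2 expression per probe set, made with RMA and Partek per the submitters' processing notes; the sources used here give no versions. RMA subtracts background, normalizes the arrays to each other and summarises the probes of a set. Array medians were 8.22 to 8.32, and precision is limited by how many arrays there are. Of 45101 probe sets, 64 array controls were left out and 45037 fitted. By the platform annotation 34945 had 1 gene symbol, 932 several and 9160 were not listed. Limma 3.58.1 in R 4.3.3 (lmFit, eBayes, two-sided, cohort as covariate) gave every adjusted p, by Benjamini-Hochberg over all probe sets, called under 0.05. Replicates are separate mice. The 2 arrays of a mouse come from the same animal by the labels' animal numbers (correlation of deviations from group means -0.06 to 0.59) and were averaged or subtracted within mice. In simulations, 65% of log2 changes of 0.5 were recovered in motor, 52% in sensory cortex and 82% in both together, and 97%, 98% and 96% of changes of 1. All simulated arrays were independent normal draws, so the 2 arrays of a mouse were not linked. Recovery on averages and differences within real mice could differ from the simulated shares, which was not tested.

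The members, lists, motifs and tests were chosen with earlier results of these data known. All members are named, and of the other lists up to 6 called genes per region by smallest p; Tmem88b, genes called only in the averaged comparison and genes given without a call were added after their values were seen. Alternatives were other normalizations, a filter on dim probe sets, brightest probe sets alone, no cohort term, each cohort alone, each mouse left out, no second processing day and mouse numbers as a block. Without the second processing day, fits of 1 region lost the array of that day. Fits that used both regions lost healthy mice 1 and 4 whole.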

Additional observations from a re-analysis of the deposited data

Results flagged for a closer look

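In 7 of 112 groups of 4 or 6 arrays, over the 28 probe sets, the highest array stood apart from the others by Dixon's criterion, which flags about 1 in 20 groups by chance. In healthy motor cortex, mouse 2 stood at 14.58 for brightest Mbp (others 14.33 to 14.35), at 10.47 for Mog (9.87 to 9.90) and at 12.76 for brightest Mal (12.29 to 12.35), and mouse 4 at 8.741 for the dimmest Mbp probe set (8.55 to 8.58). In healthy sensory cortex, mouse 1 stood at 13.88 for brightest Cnp (13.72 to 13.74) and at 5.499 for the dimmer Opalin probe set (5.23 to 5.25). In EAE motor cortex, mouse 6 stood at 11.06 for brightest Tspan2 (10.63 to 10.78). The motor array of healthy mouse 4 and the sensory array of healthy mouse 1 were the 2 arrays of the second processing day.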

How the results depend on the processing

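The count of called probe sets among the 28 was small and moved easily. In motor cortex it was 1, and 0 after quantile normalization, median centring, without the second processing day and in cohort 1 or cohort 2 alone, 2 with brightest probe sets alone, and 0 to 2 with single mice left out. In sensory cortex it was 0, 1 with brightest probe sets alone, and 0 to 1 with single mice left out. With both regions averaged it was 2, 4 without the cohort term or with the dim filter, 5 with brightest probe sets alone, 0 without the second processing day and in either cohort alone, and 1 to 9 with single mice left out, the 9 without EAE mouse 6. The other 4 counts were 0 throughout. With mouse number as a replicate block, which pairs different animals, the counts were 1 in motor (Opalin in place of Mag), 0 in sensory and 4 in both regions. Same-numbered deviations correlated at 0.106 to 0.341 in motor but at -0.283 to 0.454 in sensory cortex of the same mice, so the numbers were not taken as a pairing. On their brightest probe sets, Mag, Mog, Opalin, Cnp, Ermn and Tspan2 stayed below 0 in motor, sensory and averaged values under every alternative. This did not hold for every probe set, as 7 of the 28 changed sign in motor cortex within cohort 2 alone, 3 of them brightest. Signs changed for values near 0 and also for some larger ones. Among the larger were the third brightest Mobp probe set in motor cortex (0.30) and the grade slopes of Mog (0.32) and Tspan2 (0.31). The cause was not tested. In motor cortex Mal was -0.16 in cohort 1 and -0.0374 with the block, the third brightest Mobp probe set -0.000483 in cohort 1, and Cldn11 0.0311, Mbp 0.0246 and Mobp 0.096 in cohort 2. In sensory cortex Cldn11 was -0.0943 and Mbp -0.0188 in cohort 1, and Cldn11 -0.115 with the block. With both regions averaged, Cldn11 was 0.0260 after quantile normalization and 0.118 in cohort 2, Mbp 0.0120 after median centring and 0.0535 in cohort 2, Mobp 0.0231 in cohort 2, and Mal -0.0725 in cohort 1 and -0.0158 with the block. For the difference between regions Mag was -0.0779 without the second processing day. With single mice left out, motor Mbp ran from -0.0737 to 0.0189 and Mobp from -0.138 to 0.0222, sensory Cldn11 from -0.0588 to 0.125, averaged Cldn11 from -0.0883 to 0.0498 and Mbp from -0.0288 to 0.0340, and in the difference between regions Mag ran from -0.0605 to 0.103 and Opalin from -0.140 to 0.0852. The regional, interaction and grade comparisons were recomputed gene by gene for the genes named there alone, a restriction made after signs had been seen to change; over all 10 genes, 8 changed sign under at least 1 alternative in the difference between regions, 3 in motor minus sensory in EAE mice, 6 in healthy mice and 6 in the grade slope.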

Other observations

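The remaining lists gave few calls. Of 14 genes for axonal partners of myelin and the node of Ranvier, Nfasc, a cell adhesion gene of the node and paranode, was called in sensory cortex at -0.45 and stood at -0.21 in motor cortex, and the medians were -0.02 in motor and -0.05 in sensory cortex. Of 10 oligodendrocyte precursor genes, Cacng4 was called in motor cortex at -0.33, and the medians were -0.08 and -0.01. No gene was called in either region (limma) among 3 peripheral myelin genes (medians -0.30 and -0.21; 1 unadjusted p under 0.05 in each region), 5 striatal genes (-0.13 and -0.22; 2 in each), 5 choroid plexus genes (0.04 and 0.11; 0 and 1), 5 meningeal genes (0.04 and 0.18; 1 and 3) or 4 T cell genes (0.18 and 0.19; 2 and 3). The medians of the astrocyte genes were 0.05 in motor and 0.09 in sensory cortex. With both regions averaged, Nfasc (-0.33) and Cntn2 (-0.23) of the axonal partner and node list, Cacng4 (-0.32) of the precursor genes and Pmp22 (-0.27) of the peripheral myelin genes were called (limma adjusted p from 0.0164 to 0.0327), and 0 of the striatal, choroid plexus, meningeal and T cell genes (3, 1, 2 and 3 unadjusted p under 0.05). The names of the lists do not show which cells made these transcripts, as the tissue was bulk.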
